A study of Homo sapiens with 12 samples.

Results

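The 37 genes described here carry glucose through glycolysis, divert it into the pentose phosphate pathway, and admit its product, pyruvate, to mitochondria. The list was drawn up by function. For each gene, probes with a detection score above 0.95 on 3 or more of the 12 arrays were kept, and the brightest of them stands for the gene. Of the 37 genes, 34 were measured in this way among 12178 genes in all. PDK1 has a probe that was detected on 2 arrays, and SLC16A1 and SLC16A3 were not analysed here.

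The arrays hold RNA from Tet21N, human neuroblastoma cells in which doxycycline shuts off a transgene for N-Myc. The cells were transfected with an siRNA against MondoA (siMondoA) or with one of no specific target (siControl). Doxycycline at 1 microgram per ml was present (Myc off) or absent (Myc on) for 3 days, so there were 3 arrays in each of 4 groups. From its title, the study concerns the need of deregulated Myc for MondoA in metabolism. MondoA (gene MLXIP) is a transcription factor that responds to glucose-derived sugar phosphates. Both Myc-off groups received the drug and neither Myc-on group did, so Myc and doxycycline cannot be told apart. All 4 groups were grown in the same serum-supplemented DMEM and all were transfected.

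Each array detected 18521 to 20726 probes, and arrays of the same group correlated at r = 0.986 to 0.992 across genes. The knockdown could not be read from MLXIP, whose probe was detected on 1 array, nor the Myc state from MYCN, detected on 0 arrays. TXNIP, a known MondoA target that restrains glucose uptake, fell from a mean log2 level of 11.31 ± 0.05 (SD, n = 3) in siControl to 7.96 ± 0.16 in siMondoA cells in the Myc-on state, and from 11.09 ± 0.14 to 6.67 ± 0.10 in the Myc-off state (adjusted p = 8.61e-09 and 2.95e-10). TXNIP fell further in the Myc-off state, and whether the knockdown was equally deep in both Myc states was not tested. Of 13 neuroblastoma markers, 12 had a probe. VIM, SNAI2, PRRX1, CD44 and YAP1, listed for mesenchymal-type neuroblastoma, and HAND2, listed for the adrenergic type, were detected on all 12 arrays. FN1, also mesenchymal, was detected on 7. Of the other adrenergic markers, CHGA was detected on 2 arrays, PHOX2A on 1, and TH and DBH, enzymes of catecholamine synthesis, on none. VIM, CD44 and PRRX1 had the highest levels of the 12 in every group, so the sum given next follows mainly these mesenchymal genes. The summed linear level of the 12 was 15400 to 17100 in siControl Myc-on arrays, 22100 to 24000 with siMondoA and Myc on, 20200 to 21100 with siControl and Myc off and 19800 to 21000 with siMondoA and Myc off. Markers of other cell types were low, with 3 of 13 (ALB, PECAM1, EPCAM) detected on 3 or more arrays, 7 on none, and summed levels of 354 to 364, 367 to 377, 359 to 400 and 382 to 403 in the same order. Of the 7 neuroblastoma markers tested, knockdown raised 4 with Myc on and raised 3 and lowered 1 with Myc off, and 3 were lower with Myc on in siControl and 1 in siMondoA cells. Of the 3 other markers tested, knockdown raised ALB with Myc on, and raised EPCAM and lowered PECAM1 with Myc off, and EPCAM was lower with Myc on in siMondoA cells. Across all genes, knockdown raised 12.4% and lowered 12.5% with Myc on, and raised 21.8% and lowered 22% with Myc off. With Myc on, 16.3% of all genes were lower in siControl and 15.1% in siMondoA cells. MYC, the cells' own c-Myc gene, stood at 6.15 ± 0.23 (SD, n = 3) with siControl and Myc on, at 7.93 ± 0.18 with siMondoA and Myc on, at 9.10 ± 0.05 with siControl and Myc off and at 8.93 ± 0.08 with siMondoA and Myc off. It was lower with Myc on under both siRNAs (log2 -2.95 and -1.0, adjusted p = 3.14e-08 and 0.000153) and rose with knockdown and Myc on (1.78, adjusted p = 2.04e-06), so Myc on and Myc off name the state of the N-Myc transgene alone. The part of these markers and of MYC in the results below was not tested. In RNA of whole cultures, fewer cells of one kind and less RNA per cell cannot be told apart.

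Glycolysis begins when hexokinases trap glucose as glucose 6-phosphate. Phosphofructokinase then commits the sugar to splitting, and the lower enzymes harvest ATP and end in pyruvate. Lactate dehydrogenase turns pyruvate into lactate, while pyruvate dehydrogenase feeds it to the citric acid cycle unless pyruvate dehydrogenase kinases switch it off. The pentose phosphate pathway draws on glucose 6-phosphate to make NADPH and ribose. Myc proteins are known to bind the E-box CACGTG and to drive many of these genes, and MondoA with its partner MLX binds related elements.

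The promoters of the hexokinases HK2 and HKDC1 and of LDHA are shown because HK2 and HKDC1 differed with the Myc state in opposite directions in siControl cells, and LDHA is a further gene with E-boxes whose response to knockdown differed between Myc states. The sequences are RefSeq windows of 300 bases on GRCh38.p14, reaching 250 bases before and 50 after an annotated start, in lower case with CACGTG in capitals. CACGTG reads the same on both strands. HK2 lies on chromosome 2 (chr2:74834920-74835219, plus strand), and this window belongs to a start inside the gene, with E-boxes 194 and 149 bases before it, while the window at the outer start (chr2:74833877-74834176) holds no CACGTG:
HK2: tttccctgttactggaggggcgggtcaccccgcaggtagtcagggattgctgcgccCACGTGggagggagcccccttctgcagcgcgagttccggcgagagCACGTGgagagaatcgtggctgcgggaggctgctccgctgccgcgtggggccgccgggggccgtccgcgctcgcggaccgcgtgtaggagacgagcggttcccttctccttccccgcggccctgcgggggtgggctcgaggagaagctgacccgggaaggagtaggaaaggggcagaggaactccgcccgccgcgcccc
LDHA lies on chromosome 11 (chr11:18394313-18394612, plus strand), at the gene's outer start, with E-boxes 185 and 87 bases before it, while a second LDHA window holds none:
LDHA: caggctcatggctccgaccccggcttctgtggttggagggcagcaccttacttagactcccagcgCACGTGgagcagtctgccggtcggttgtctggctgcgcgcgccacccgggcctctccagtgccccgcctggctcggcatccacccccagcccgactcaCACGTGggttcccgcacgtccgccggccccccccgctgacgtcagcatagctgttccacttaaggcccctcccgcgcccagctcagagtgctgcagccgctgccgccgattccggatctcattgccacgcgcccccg
HKDC1 lies on chromosome 10 (chr10:69220082-69220381, plus strand), and its window holds no CACGTG:
HKDC1: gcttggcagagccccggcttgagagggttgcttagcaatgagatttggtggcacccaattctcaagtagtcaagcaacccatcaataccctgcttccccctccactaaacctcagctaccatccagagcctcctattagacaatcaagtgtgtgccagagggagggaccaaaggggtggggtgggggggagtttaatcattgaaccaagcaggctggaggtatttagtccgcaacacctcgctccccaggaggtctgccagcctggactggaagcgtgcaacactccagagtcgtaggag

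CACGTG was found in windows of 8 of the 34 member genes that have a RefSeq promoter (23.5%), namely ALDOA, ALDOC, GAPDH, HK2, LDHA, PDHB, PDK2 and PFKFB3, against 8.77% of 27305 genes. Some genes have several windows, 64 for the 34 members and 35116 for the 27305 genes, and by window the shares were 12.5% and 7.26%. The looser CACGNG, which includes every CACGTG, was found in 19 member genes (55.9%) and 34.3% of all genes, or 37.5% of member windows and 30.5% of all windows. Its paired arrangement, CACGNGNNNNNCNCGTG, was found in 0 member windows and in 8 of all windows. These are letter matches in a short window and show no binding. By the threshold given below, HK2 alone of the 8 CACGTG genes was higher with Myc on in siControl cells. ALDOA and ALDOC were lower, and GAPDH, LDHA, PDHB, PDK2 and PFKFB3 did not pass. LDHB, PDK3, RPIA and RPE, which are not among those 8 genes, were higher.

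MondoA knockdown with Myc on raised 7 of the 34 genes and lowered 2. A change is said to have passed when limma's p, Benjamini-Hochberg adjusted over the 12178 genes, was below 0.05. Across all genes 24.8% passed in this comparison, 12.4% higher and 12.5% lower, against 26.5% of the members. The genes that rose were HKDC1, PFKFB4, RPE, PGAM1, PDK3, PKM and PFKFB3. Those that fell were ALDOC and PGLS. The median log2 change of the members was 0.07, beside 0.03 for all genes, and the 2 groups did not overlap for 16 of 34 members, beside 40.4% of all genes.

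With Myc off the same knockdown raised 7 members and lowered 10, which is 50% of those measured where 43.8% of all genes passed (21.8% higher, 22% lower). HK2, GPI, PFKL, PFKFB4, PDK3, RPIA and RPE rose, and HKDC1, PFKP, ALDOA, ALDOC, ENO2, LDHA, PGD, TKT, TALDO1 and PGM1 fell. The members' median change was -0.01 (all genes 0.03), and the groups did not overlap for 21 of 34 (52.3% of all genes). Knockdown passed in both Myc states for 5 genes, and the share of all genes that did so was not counted. PFKFB4, PDK3 and RPE rose in both, ALDOC fell in both, and HKDC1 moved in opposite directions.

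**Figure D1:**
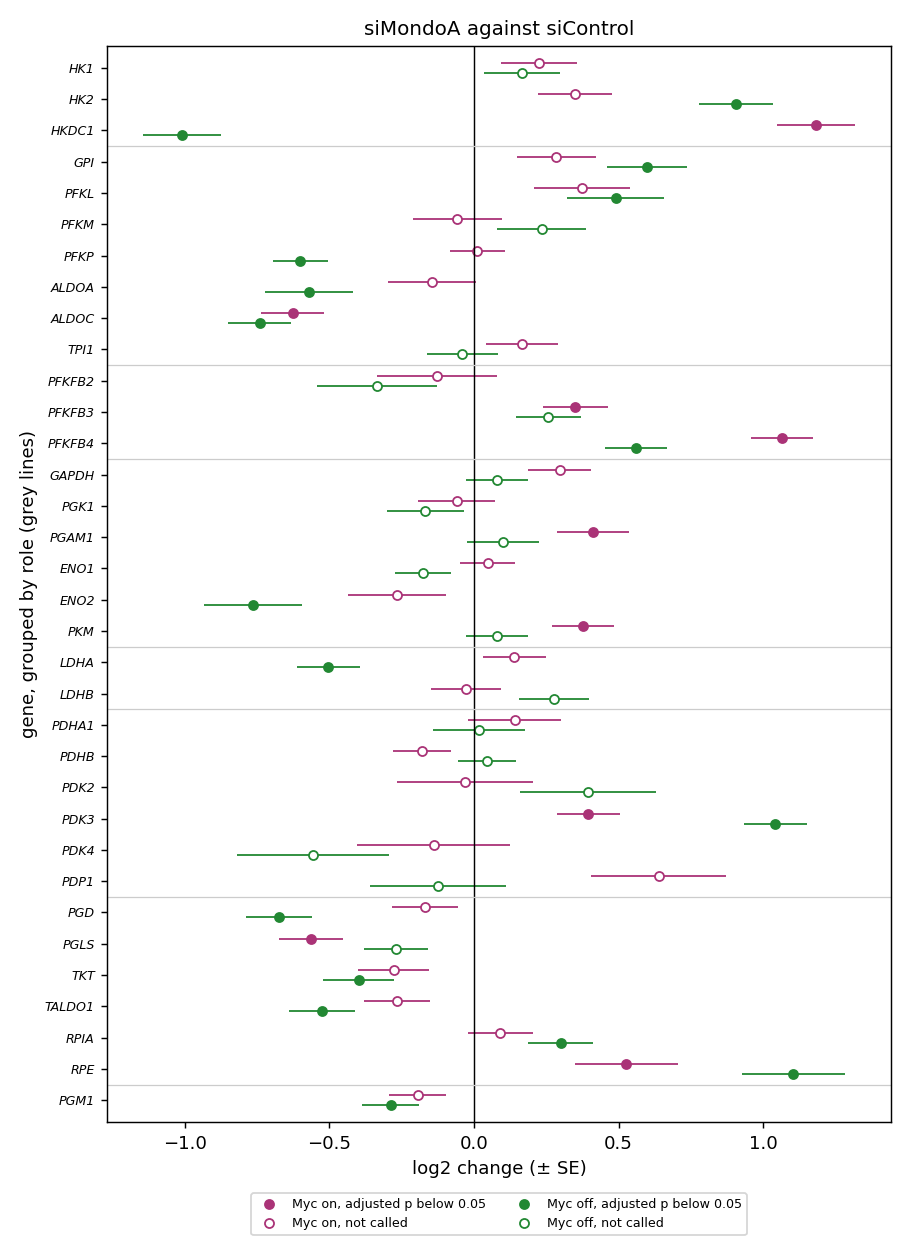
The log2 change with siMondoA against siControl (horizontal axis, ± SE) is plotted for the 34 genes, grouped by role, in Myc-on and Myc-off cells, with filled points for adjusted p below 0.05. HKDC1 lies at 1.18 with Myc on and at -1.01 with Myc off, while PFKFB4 and ALDOC keep their side of 0.

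With siControl, Myc-on cells had higher levels of 5 members and lower levels of 7 than Myc-off cells, 35.3% of members where 30.9% of all genes passed (14.6% higher, 16.3% lower). HK2, LDHB, PDK3, RPIA and RPE were higher, and HKDC1, ALDOA, ALDOC, PFKFB4, PDP1, PGD and TALDO1 were lower. The members' median change was -0.14 (all genes -0.01), with no overlap for 20 of 34 (45% of all genes). With siMondoA, 5 were higher (HK2, PFKP, LDHA, LDHB, RPIA) and 4 lower (ALDOC, PDHB, PDK2, PGLS), 26.5% of members where 30% of all genes passed (14.9% higher, 15.1% lower). The median change there was 0.00 (all genes -0.02), with no overlap for 18 of 34 (41.8% of all genes). HK2, LDHB and RPIA were higher with Myc on under both siRNAs, and ALDOC was lower under both. The share of all genes that passed under both was not counted.

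**Figure D2:**
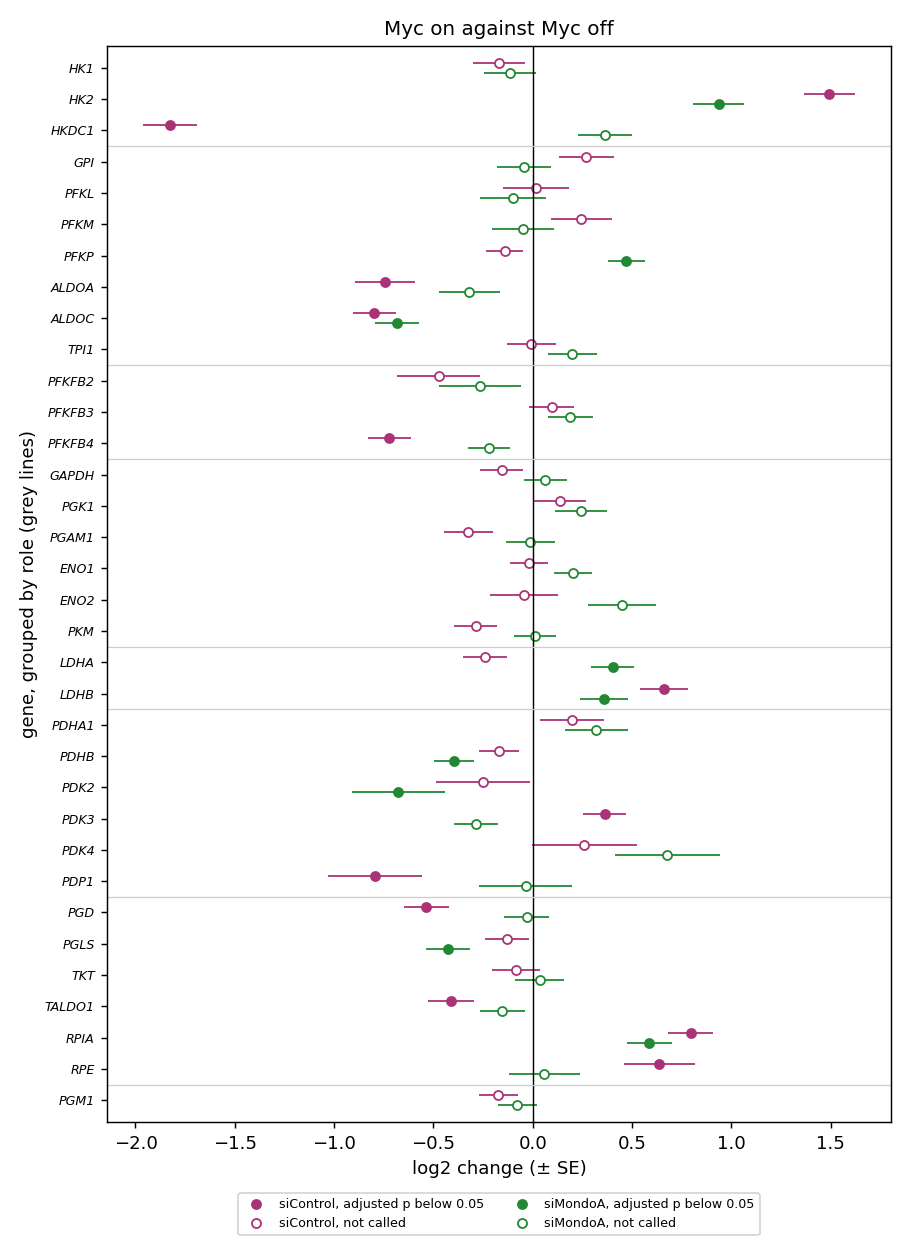
The log2 change of Myc-on against Myc-off cells (horizontal axis, ± SE) is plotted for the same 34 genes in siControl and siMondoA cells, with filled points for adjusted p below 0.05. HK2 lies furthest to the right with siControl (1.49) and HKDC1 furthest to the left (-1.83).

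The interaction, which is the effect of knockdown in Myc-on cells less its effect in Myc-off cells, passed for 4 members, 11.8% where 8.7% of all genes passed. It was positive for HKDC1, PFKP and LDHA (5.15% of all genes passed upward) and negative for PDK3 (3.55% downward). Over the 34 members the median was 0.12 (all genes 0.00), and 23 were above 0. Comparisons that share a control group are not independent of each other. The depth of the knockdown may differ between the Myc states, which was not tested. Scaling moved these counts: when arrays were scaled to their medians instead of quantile-normalized, all genes shifted by 0.19 and -0.06 in the knockdown comparisons with Myc on and off, by -0.11 and 0.13 in the Myc comparisons with siControl and siMondoA and by 0.28 in the interaction. Of all genes that passed, the higher ones then made up 79.1%, 37.2%, 25.6%, 76.2% and 94.1% in that order, in place of 49.7%, 49.9%, 47.2%, 49.7% and 59.2%. Under that scaling 13 members rose and 1 fell with knockdown and Myc on, and no called change of a member turned its direction under the alternatives tried.

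The sizes of changes depended on the background correction. Without it, 13 of the 51 called changes were smaller by over 1.5 times and 0 larger, all 13 of them still called, and the median size was 0.82 of that given here. HKDC1 then gave 0.68 for knockdown with Myc on, -1.14 for the Myc comparison with siControl and 1.37 for the interaction. HK2 gave 0.50 for knockdown with Myc off and 0.89 for Myc with siControl, ENO2 -0.35 for knockdown with Myc off, and ALDOC -0.35 for knockdown with Myc on and -0.39 for Myc with siMondoA. RPE gave 0.72 for knockdown with Myc off and 0.39 for Myc with siControl. PDK3 gave 0.24 and PDP1 -0.26 for Myc with siControl, and PDK2 -0.24 for Myc with siMondoA. Median scaling made 7 called changes smaller and 4 larger by over 1.5 times. The larger ones were those of PGAM1, PKM, PFKFB3 and PDK3 for knockdown with Myc on (0.63 to 0.67). Quantile normalization without background correction and the deposited log2 values are the same values. They count as separate alternatives wherever alternatives are counted below, so such counts are not of distinct settings.

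Among the hexokinases, HK2 and HKDC1 differed with the Myc state in opposite directions in siControl cells. HK2, the inducible isoform bound to mitochondria, stood at 8.07, 8.10 and 8.08 with siControl and Myc on, at 8.34, 8.49 and 8.46 with siMondoA and Myc on, at 6.61, 6.32 and 6.84 with siControl and Myc off and at 7.47, 7.62 and 7.39 with siMondoA and Myc off, in log2 units. Its 4 groups did not overlap, with Myc-on arrays on top and siMondoA arrays above siControl arrays in each Myc state. HK2 was 2.82-fold higher with Myc on in siControl cells (log2 1.49 ± 0.13 (SE), adjusted p = 7.67e-06) and 1.91-fold higher in siMondoA cells (0.94 ± 0.13 (SE), adjusted p = 0.000208). Knockdown raised it with Myc off (0.91 ± 0.13 (SE), adjusted p = 0.000113), and its change with Myc on was 0.35 (95% interval 0.07 to 0.63, adjusted p = 0.0651). The interaction was -0.56 (95% interval -0.95 to -0.17, adjusted p = 0.078). A second HK2 probe also rose with knockdown and Myc off, by 0.75 (adjusted p = 0.0405 over all detected probes), and its Myc changes of 0.32 and 0.39 did not pass. With knockdown and Myc on it gave 0.81 (adjusted p = 0.0506) with groups that did not overlap. The change with Myc on passed under 6 alternatives (0.26 to 0.60), one of them the mean of detected probes (0.58, adjusted p = 0.0232), which also gave 0.91 for Myc with siControl. The interaction passed under 1 (adjusted p = 0.046).

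HKDC1, a hexokinase-like gene that neighbours HK1 on chromosome 10 in RefSeq, stood at 6.41, 6.61 and 6.70 with siControl and Myc on, at 7.50, 7.90 and 7.87 with siMondoA and Myc on, at 8.48, 8.31 and 8.41 with siControl and Myc off and at 7.47, 7.49 and 7.21 with siMondoA and Myc off. Here too the 4 groups did not overlap, though the siMondoA groups were only just apart (7.50 against 7.49). The siControl cells held both the lowest levels (Myc on) and the highest (Myc off). In siControl cells it was 3.55-fold lower with Myc on (log2 -1.83 ± 0.14 (SE), adjusted p = 2.09e-06). Knockdown raised it 2.27-fold with Myc on (1.18 ± 0.14 (SE), adjusted p = 8.12e-05) and lowered it 2.01-fold with Myc off (-1.01 ± 0.14 (SE), adjusted p = 7.69e-05). Its interaction was the highest among the members (2.19 ± 0.19 (SE), adjusted p = 4.6e-05). With siMondoA the Myc change was 0.36 (95% interval 0.07 to 0.66, adjusted p = 0.0597), which passed under 6 alternatives. HK1, the constitutive isoform, ranged from 12.15 to 12.76 and passed in no comparison (with knockdown and Myc on only under median scaling), with changes of -0.17 to 0.23 and interval bounds of -0.46 to 0.51.

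**Figure D3:**
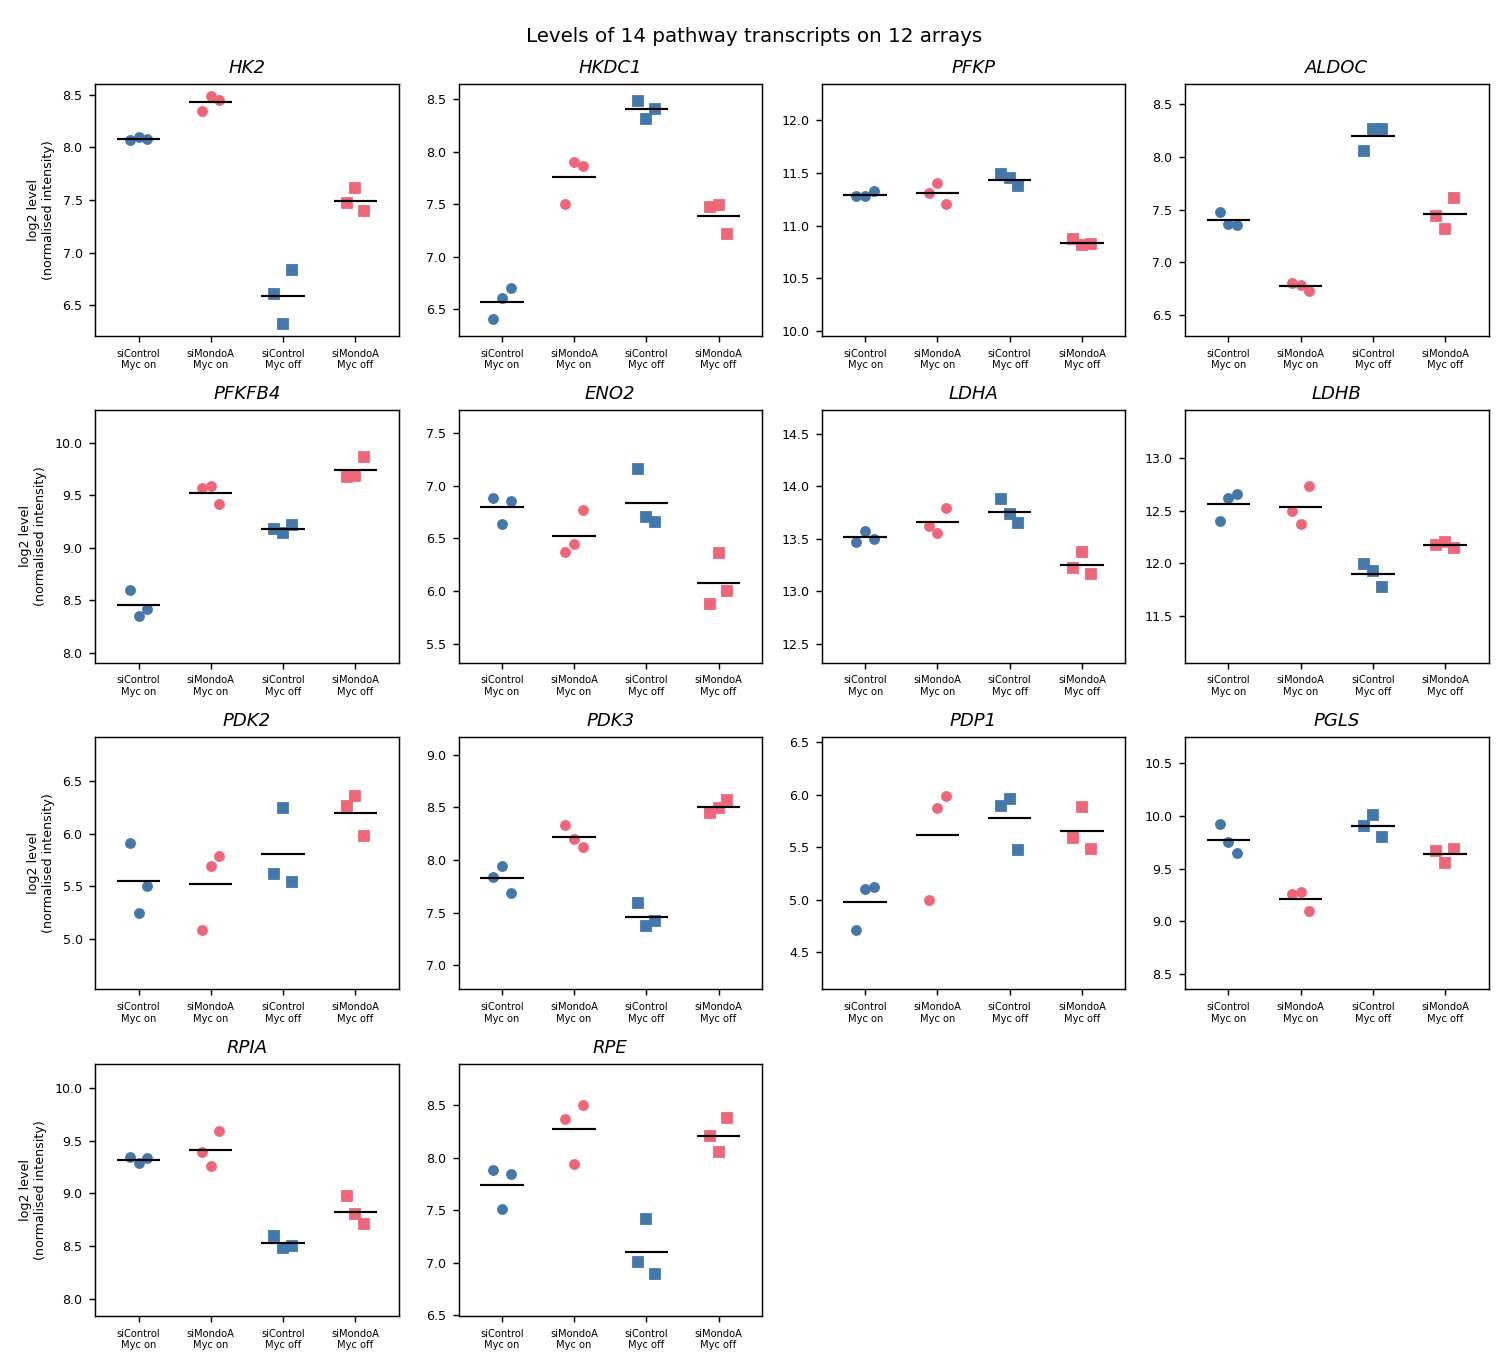
Log2 levels (vertical axis) of the 14 genes described array by array are plotted for the 4 groups, with a point for each array and a bar for the group mean. The HK2 and HKDC1 panels show the 4 groups in a different order, clearly apart for HK2, while the siMondoA groups of HKDC1 nearly touch. The LDHA and PFKP panels show the siMondoA Myc-off arrays below the rest.

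In the upper part of glycolysis, knockdown changed 5 of 7 genes with Myc off, where 43.8% of all genes passed, and 1 of 7 with Myc on (24.8% of all genes), and the interaction passed for 1 of the 7 (8.7%). PFKP, the platelet-type phosphofructokinase, stood at 11.28, 11.28 and 11.33 with siControl and Myc on, at 11.31, 11.41 and 11.21 with siMondoA and Myc on, at 11.49, 11.45 and 11.37 with siControl and Myc off and at 10.87, 10.81 and 10.83 with siMondoA and Myc off. The 3 siMondoA Myc-off arrays lay below all the others. Knockdown lowered PFKP with Myc off (-0.60 ± 0.10 (SE), adjusted p = 0.000262), and its change with Myc on was 0.01 (95% interval -0.19 to 0.22, adjusted p = 0.943). The difference between these changes passed (interaction 0.61 ± 0.13 (SE), adjusted p = 0.0153), and in siMondoA cells PFKP was higher with Myc on (0.47 ± 0.10 (SE), adjusted p = 0.00259).

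ALDOC, the brain-type aldolase, passed in all 4 pairwise comparisons. It stood at 7.48, 7.36 and 7.35 with siControl and Myc on, at 6.80, 6.79 and 6.73 with siMondoA and Myc on, at 8.06, 8.26 and 8.27 with siControl and Myc off and at 7.44, 7.32 and 7.61 with siMondoA and Myc off. The siControl Myc-off arrays were highest, the siMondoA Myc-on arrays lowest, and the remaining groups overlapped each other between them. After knockdown it fell by 0.63 with Myc on (adjusted p = 0.00137) and fell by 0.74 with Myc off (adjusted p = 0.000152) on the log2 scale. The Myc changes were -0.80 with siControl and -0.68 with siMondoA (adjusted p = 0.000182 and 0.000564). ALDOA, the muscle and general aldolase, ranged from 12.41 to 13.49. It fell with knockdown and Myc off (-0.57 ± 0.15 (SE), adjusted p = 0.00847) and was lower with Myc on in siControl cells (-0.75 ± 0.15 (SE), adjusted p = 0.00275), while a second ALDOA probe gave -0.20 and -0.25 there and did not pass. The first ALDOA call was lost under median scaling (adjusted p = 0.0752).

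GPI, the isomerase of glucose 6-phosphate, ranged from 9.86 to 10.84 and rose with knockdown and Myc off (0.60 ± 0.14 (SE), adjusted p = 0.00342). PFKL, the liver-type phosphofructokinase, ranged from 7.52 to 8.47 and rose there too (0.49 ± 0.17 (SE), adjusted p = 0.0308), with overlapping groups. The PFKL call was lost without siControl Myc off arrays 2 or 3 or siMondoA Myc off arrays 1 or 2 (adjusted p = 0.0586 to 0.122), under median scaling (adjusted p = 0.178), and when the fit held only the groups compared (adjusted p = 0.0566). With Myc on, knockdown gave 0.285 for GPI and 0.37 for PFKL (limma adjusted p = 0.153 and 0.125). Both passed under 1 alternative, median scaling, and neither interaction passed. PFKM, the muscle type, and TPI1, triose phosphate isomerase, ranged from 10.14 to 10.77 and 12.80 to 13.26 and passed in no comparison. The phosphofructokinase genes did not share a direction with Myc off: PFKL rose, PFKP fell and PFKM gave 0.24 (95% interval -0.10 to 0.57, adjusted p = 0.242).

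Of the regulators of phosphofructokinase, PFKFB4 passed in 3 comparisons. The PFKFB enzymes make and break fructose 2,6-bisphosphate, the activator of that step. PFKFB4 stood at 8.60, 8.35 and 8.42 with siControl and Myc on, at 9.57, 9.58 and 9.41 with siMondoA and Myc on, at 9.18, 9.14 and 9.22 with siControl and Myc off and at 9.67, 9.68 and 9.87 with siMondoA and Myc off. The 4 groups did not overlap, and both siMondoA groups lay above both siControl groups. Knockdown raised it 2.09-fold with Myc on (log2 1.06 ± 0.11 (SE), adjusted p = 2.55e-05) and 1.47-fold with Myc off (0.56 ± 0.11 (SE), adjusted p = 0.00103). In siControl cells it was lower with Myc on (-0.72 ± 0.11 (SE), adjusted p = 0.000328), and in siMondoA cells the change was -0.22 (95% interval -0.45 to 0.01, adjusted p = 0.145). The interaction was 0.50 (95% interval 0.18 to 0.83, adjusted p = 0.0585) and passed under 7 alternatives. PFKFB3 ranged from 10.25 to 10.96 and rose with knockdown and Myc on (0.35 ± 0.11 (SE), adjusted p = 0.038). That call was lost without siControl Myc on arrays 1, 2 or 3, siMondoA Myc on arrays 1, 2 or 3 or siMondoA Myc off array 1 (adjusted p = 0.0502 to 0.115), and when the gene's detected probes were averaged (0.22, adjusted p = 0.182). With Myc off the knockdown change of PFKFB3 was 0.26 (limma adjusted p = 0.0828), which passed under 4 alternatives, and its interaction did not pass. PFKFB2 ranged from 5.54 to 6.78 and passed in no comparison, with changes of -0.47 to -0.13. Its Myc change with siControl (-0.47) passed with the replicate block (adjusted p = 0.034) and under median scaling.

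In the lower part of glycolysis, knockdown raised 2 of 6 genes with Myc on (12.4% of all genes rose) and lowered 1 with Myc off (22% of all genes fell). GAPDH, which oxidizes glyceraldehyde 3-phosphate, gave 44% to 70% of the highest signal of its array and ENO1, the common enolase, 51% to 66.8%, and whether such signals are compressed was not tested. Neither passed in any comparison, nor did PGK1, the first ATP-forming kinase. With knockdown and Myc off, ENO1 passed under 1 alternative, cyclic loess (-0.26, limma adjusted p = 0.0493). With knockdown and Myc on, GAPDH gave 0.30 (95% interval 0.06 to 0.53, adjusted p = 0.0638; called under 7 alternatives, adjusted p = 0.0119 to 0.0499) and ENO1 0.05 (95% interval -0.16 to 0.26, adjusted p = 0.765). ENO2, the neuronal enolase, stood at 6.89, 6.64 and 6.86 with siControl and Myc on, at 6.37, 6.45 and 6.77 with siMondoA and Myc on, at 7.16, 6.71 and 6.66 with siControl and Myc off and at 5.88, 6.36 and 6.0 with siMondoA and Myc off. The siMondoA Myc-off arrays lay below all the others and the other groups overlapped. ENO2 fell with knockdown and Myc off (-0.76 ± 0.17 (SE), adjusted p = 0.00287). Its signal was low, and without background correction this fall was -0.35. In siMondoA cells its Myc change was 0.45 (limma adjusted p = 0.0633), which passed under 3 alternatives.

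PGAM1, phosphoglycerate mutase, ranged from 11.41 to 12.05 and rose with knockdown and Myc on (0.41 ± 0.13 (SE), adjusted p = 0.0304). It lost its call without siControl Myc on arrays 1, 2 or 3 or siMondoA Myc on arrays 1 or 2 (adjusted p = 0.0515 to 0.11), and when detected probes were averaged (0.25, adjusted p = 0.179). The Myc change of PGAM1 with siControl was -0.32 (limma adjusted p = 0.0686), which passed under 5 alternatives. PKM, the pyruvate kinase of most dividing cells, ranged from 11.01 to 11.51 and rose in the same comparison (0.38 ± 0.11 (SE), adjusted p = 0.0217). The PKM call was lost without siControl Myc on arrays 1 or 2 or siMondoA Myc on arrays 2 or 3 (adjusted p = 0.0595 to 0.0689). Other PKM probes gave 0.49 and 0.46 there, and the first passed (adjusted p = 0.0165 over all detected probes). In siControl cells those probes gave Myc changes of -0.55 and -0.54, which both passed, where the brightest probe gave -0.29 (95% interval -0.52 to -0.06, adjusted p = 0.0591), a change that passed under 8 alternatives.

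The lactate dehydrogenase subunits differed in the comparisons they passed. LDHA, the subunit favoured in glycolytic cells, stood at 13.47, 13.58 and 13.50 with siControl and Myc on, at 13.62, 13.55 and 13.79 with siMondoA and Myc on, at 13.88, 13.74 and 13.65 with siControl and Myc off and at 13.22, 13.37 and 13.17 with siMondoA and Myc off. The siMondoA Myc-off arrays lay below all the others, whose groups overlapped in part. Knockdown lowered LDHA with Myc off (-0.50 ± 0.11 (SE), adjusted p = 0.00241), gave 0.14 (95% interval -0.10 to 0.38, adjusted p = 0.389) with Myc on, and the interaction passed (0.64 ± 0.16 (SE), adjusted p = 0.0239). In siMondoA cells LDHA was higher with Myc on (0.40 ± 0.11 (SE), adjusted p = 0.0147), a call lost without siMondoA Myc on array 3 or siMondoA Myc off array 3 (adjusted p = 0.0539 to 0.0554). The interaction lost its call without siControl Myc on arrays 1 or 3, siControl Myc off array 1 or siMondoA Myc off arrays 1 or 3 (adjusted p = 0.0508 to 0.0585), and under median scaling or the mean of detected probes (adjusted p up to 0.0962). The fall with Myc off did not pass under median scaling (-0.33, adjusted p = 0.109). Its second probe gave 0.14, -0.49, -0.09 and 0.54 in the 4 pairwise comparisons and 0.63 in the interaction, which did not pass, and a further detected probe passed in no comparison.

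LDHB, the heart-type subunit, stood at 12.40, 12.62 and 12.66 with siControl and Myc on, at 12.49, 12.37 and 12.73 with siMondoA and Myc on, at 11.99, 11.93 and 11.78 with siControl and Myc off and at 12.18, 12.20 and 12.14 with siMondoA and Myc off. Every Myc-on array lay above every Myc-off array. LDHB was 1.58-fold higher with Myc on in siControl cells (0.66 ± 0.12 (SE), adjusted p = 0.00127) and 1.28-fold higher in siMondoA cells (0.36 ± 0.12 (SE), adjusted p = 0.0395). The latter call was lost without siMondoA Myc on arrays 1 or 3 or siMondoA Myc off arrays 1, 2 or 3 (adjusted p = 0.0642 to 0.139), and under 5 of the 12 other settings (adjusted p up to 0.0787), one of them the replicate block.

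Of the gate into mitochondria, PDK3 changed in most comparisons by its brightest probe, though not by a second one. It encodes a kinase that switches pyruvate dehydrogenase off. PDK3 stood at 7.84, 7.95 and 7.69 with siControl and Myc on, at 8.34, 8.20 and 8.13 with siMondoA and Myc on, at 7.59, 7.37 and 7.42 with siControl and Myc off and at 8.45, 8.49 and 8.57 with siMondoA and Myc off. The 4 groups did not overlap, both siMondoA groups were above both siControl groups, and the order of the Myc states was opposite under the 2 siRNAs. Knockdown raised it 2.06-fold with Myc off (1.04 ± 0.11 (SE), adjusted p = 1.21e-05) and 1.32-fold with Myc on (0.40 ± 0.11 (SE), adjusted p = 0.0199), and the interaction was negative (-0.65 ± 0.16 (SE), adjusted p = 0.0244). In siControl cells it was higher with Myc on (0.36 ± 0.11 (SE), adjusted p = 0.0252). The call with Myc on was lost without siControl Myc on array 3 or siMondoA Myc on array 1 (adjusted p = 0.0767 to 0.0819), that of the Myc comparison without siControl Myc on arrays 1 or 2 or siControl Myc off arrays 2 or 3 (adjusted p = 0.0653 to 0.0975), and that of the interaction without siControl Myc on arrays 1 or 2, siMondoA Myc on arrays 2 or 3, siControl Myc off arrays 2 or 3 or siMondoA Myc off array 3 (adjusted p = 0.0502 to 0.0626). A second probe, detected on all 12 arrays, gave 0.01, -0.10, 0.13 and 0.24 in the 4 pairwise comparisons and passed in none. This second probe is assigned to the RefSeq mRNA of PDK3, and the probe used above to a cDNA clone. Which of them follows the gene's main transcript was not tested. Averaging the probes gave 0.47 for knockdown with Myc off, still called, and ended the calls for knockdown with Myc on (0.20, adjusted p = 0.234), the Myc comparison (adjusted p = 0.129) and the interaction (-0.27, adjusted p = 0.345), and median scaling ended the last 2 of these (adjusted p = 0.426 each). The Myc call was also lost when the fit held only the groups compared (adjusted p = 0.0515).

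PDP1, a phosphatase that switches the complex back on, stood at 4.71, 5.10 and 5.12 with siControl and Myc on, at 5.0, 5.87 and 5.98 with siMondoA and Myc on, at 5.89, 5.95 and 5.48 with siControl and Myc off and at 5.59, 5.89 and 5.48 with siMondoA and Myc off. The siControl Myc-on arrays lay below both Myc-off groups, while the siMondoA Myc-on arrays overlapped every group. The probe was not above background on any siControl Myc-on array and was detected on 8 arrays in all. PDP1 was at least 1.51-fold lower with Myc on in siControl cells (log2 -0.80 ± 0.24 (SE), adjusted p = 0.0218), a bound taken against the lowest detected signals, and the call was lost without siControl Myc on array 1 or siControl Myc off arrays 1 or 2 (adjusted p = 0.0708 to 0.0826). With knockdown and Myc on, against the same undetected group, it gave 0.64 (limma adjusted p = 0.0661), which passed under 2 alternatives. PDK2, another kinase of the complex, stood at 5.92, 5.24 and 5.51 with siControl and Myc on, at 5.08, 5.70 and 5.79 with siMondoA and Myc on, at 5.62, 6.25 and 5.55 with siControl and Myc off and at 6.27, 6.36 and 5.98 with siMondoA and Myc off. Both Myc-on groups lay below the siMondoA Myc-off arrays, and the other groups overlapped. In siMondoA cells PDK2 was lower with Myc on (-0.68 ± 0.24 (SE), adjusted p = 0.0458), and the call was lost without siControl Myc on array 3, siMondoA Myc on arrays 1 or 2, siControl Myc off array 1 or siMondoA Myc off arrays 1 or 2 (adjusted p = 0.0544 to 0.174), and with the replicate block, median scaling or no detection filter (adjusted p up to 0.137).

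Of the complex itself, PDHB, the beta subunit of its first enzyme, ranged from 11.13 to 11.68 and was lower with Myc on in siMondoA cells (-0.40 ± 0.10 (SE), adjusted p = 0.0101), a call lost under median scaling (-0.23, adjusted p = 0.257). PDHA1, the alpha subunit, ranged from 9.25 to 10.03 and passed in no comparison (changes of 0.02 to 0.32). Its Myc change with siMondoA (0.32) passed under 3 alternatives (0.29 to 0.51, limma adjusted p = 0.0333 to 0.0469). PDK4, the kinase that rises in fasting, was detected on 9 arrays at 4.53 to 5.91 and passed in none. The Myc change of PDK4 with siMondoA (0.68) passed under 1 alternative, the intensity trend (limma adjusted p = 0.0427). Its intervals were wide, with bounds of -1.13 and 1.25. The PDK1 probe was detected on too few arrays for a test.

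In the pentose phosphate pathway the non-oxidative isomerase and epimerase rose with knockdown in Myc-off cells, where 3 other enzymes fell. The genes that rose were RPIA and RPE and those that fell PGD, TKT and TALDO1, so 5 of 6 passed, where 43.8% of all genes did (21.8% higher, 22% lower). RPE, ribulose phosphate epimerase, stood at 7.88, 7.51 and 7.84 with siControl and Myc on, at 8.37, 7.94 and 8.50 with siMondoA and Myc on, at 7.01, 7.42 and 6.89 with siControl and Myc off and at 8.20, 8.05 and 8.38 with siMondoA and Myc off. The siControl Myc-off arrays were lowest, the siControl Myc-on arrays next, and both siMondoA groups were above them and overlapped each other. Knockdown raised RPE 2.15-fold with Myc off (1.10 ± 0.18 (SE), adjusted p = 0.00031) and 1.44-fold with Myc on (0.53 ± 0.18 (SE), adjusted p = 0.0477). The call with Myc on was lost without siControl Myc on arrays 1, 2 or 3, siMondoA Myc on arrays 1 or 3, siControl Myc off array 1 or siMondoA Myc off arrays 1, 2 or 3 (adjusted p = 0.0506 to 0.166), and under 5 of the 12 other settings (adjusted p up to 0.07), one of them the replicate block. In siControl cells RPE was higher with Myc on (0.64 ± 0.18 (SE), adjusted p = 0.0166), a call lost without siControl Myc on arrays 1 or 3 or siControl Myc off arrays 1 or 3 (adjusted p = 0.0566 to 0.0724) and under median scaling (adjusted p = 0.138).

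RPIA, the ribose phosphate isomerase, stood at 9.34, 9.29 and 9.34 with siControl and Myc on, at 9.39, 9.26 and 9.59 with siMondoA and Myc on, at 8.60, 8.48 and 8.50 with siControl and Myc off and at 8.97, 8.80 and 8.71 with siMondoA and Myc off. All Myc-on arrays lay above all Myc-off arrays, and the siControl Myc-off arrays were lowest. RPIA was higher with Myc on in siControl cells (0.80 ± 0.11 (SE), adjusted p = 0.000247) and in siMondoA cells (0.59 ± 0.11 (SE), adjusted p = 0.002). It rose with knockdown and Myc off (0.30 ± 0.11 (SE), adjusted p = 0.0475), and that call was lost without siControl Myc on arrays 1, 2 or 3, siMondoA Myc on array 1, siControl Myc off arrays 1, 2 or 3 or siMondoA Myc off arrays 1 or 2 (adjusted p = 0.0592 to 0.175), and under 5 of the 12 other settings (adjusted p up to 0.369), one of them the replicate block.

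PGLS, the lactonase of the oxidative branch, stood at 9.93, 9.75 and 9.65 with siControl and Myc on, at 9.26, 9.28 and 9.10 with siMondoA and Myc on, at 9.90, 10.01 and 9.80 with siControl and Myc off and at 9.67, 9.55 and 9.69 with siMondoA and Myc off. The siMondoA Myc-on arrays lay below all the others. PGLS fell with knockdown when Myc was on (-0.56 ± 0.11 (SE), adjusted p = 0.00291) and was lower with Myc on in siMondoA cells (-0.43 ± 0.11 (SE), adjusted p = 0.0116). Its interaction was -0.30 (95% interval -0.63 to 0.04, adjusted p = 0.273). Both calls were lost under median scaling (-0.30 and -0.24, adjusted p = 0.153 and 0.271). With Myc off its knockdown change was -0.27 (limma adjusted p = 0.0662), which passed under 5 alternatives.

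PGD, the dehydrogenase that makes NADPH and ribulose 5-phosphate, ranged from 11.07 to 11.93. It fell with knockdown when Myc was off (-0.67 ± 0.11 (SE), adjusted p = 0.000428) and was lower with Myc on in siControl cells (-0.54 ± 0.11 (SE), adjusted p = 0.0036), with an interaction of 0.51 (95% interval 0.16 to 0.86, adjusted p = 0.0736) that passed under 7 alternatives. TALDO1, transaldolase, ranged from 11.92 to 12.76 and showed the same calls (-0.52 ± 0.11 (SE), adjusted p = 0.00237 and -0.41 ± 0.11 (SE), adjusted p = 0.0154). The latter was lost without siControl Myc on array 2 (adjusted p = 0.0714) and with the mean of detected probes (-0.19, adjusted p = 0.322), which gave -0.80 for the knockdown. A second TALDO1 probe was not above background on any siMondoA Myc-off array, so its changes there have no measured size. By it TALDO1 was at least 1.45-fold lower with knockdown and Myc off (adjusted p = 0.00208 over all detected probes). TKT, transketolase, ranged from 12.35 to 12.98 and fell with knockdown when Myc was off (-0.40 ± 0.12 (SE), adjusted p = 0.0191), a call lost without siControl Myc off arrays 1 or 2 or siMondoA Myc off arrays 1 or 3 (adjusted p = 0.054 to 0.0839) under median scaling (adjusted p = 0.268) and with only the groups compared (adjusted p = 0.0613). PGM1, which links glucose 1-phosphate of glycogen to glucose 6-phosphate, ranged from 11.25 to 11.69 and fell in the same comparison (-0.29 ± 0.10 (SE), adjusted p = 0.0318), a call lost without siControl Myc off arrays 1 or 3 or siMondoA Myc off arrays 1 or 3 (adjusted p = 0.0821 to 0.101) under median scaling (adjusted p = 0.164) and with only the groups compared (adjusted p = 0.0694). With Myc on, knockdown gave -0.28 for TKT and -0.27 for TALDO1 (limma adjusted p = 0.12 and 0.109), which passed under 3 alternatives each. For PGM1 it gave -0.19. The interaction passed for none of TKT, TALDO1 and PGM1.

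Several genes had more than 1 detected probe, 13 of the 34, and the probes did not always share a call. Besides those above, a second PGK1 probe rose with knockdown in both Myc states (0.54 and 0.55, adjusted p = 0.013 and 0.00547 over all detected probes), where the brightest gave -0.06 and -0.17. Levels of different probes were not set against each other, since each binds with its own strength.

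**Figure D4:**
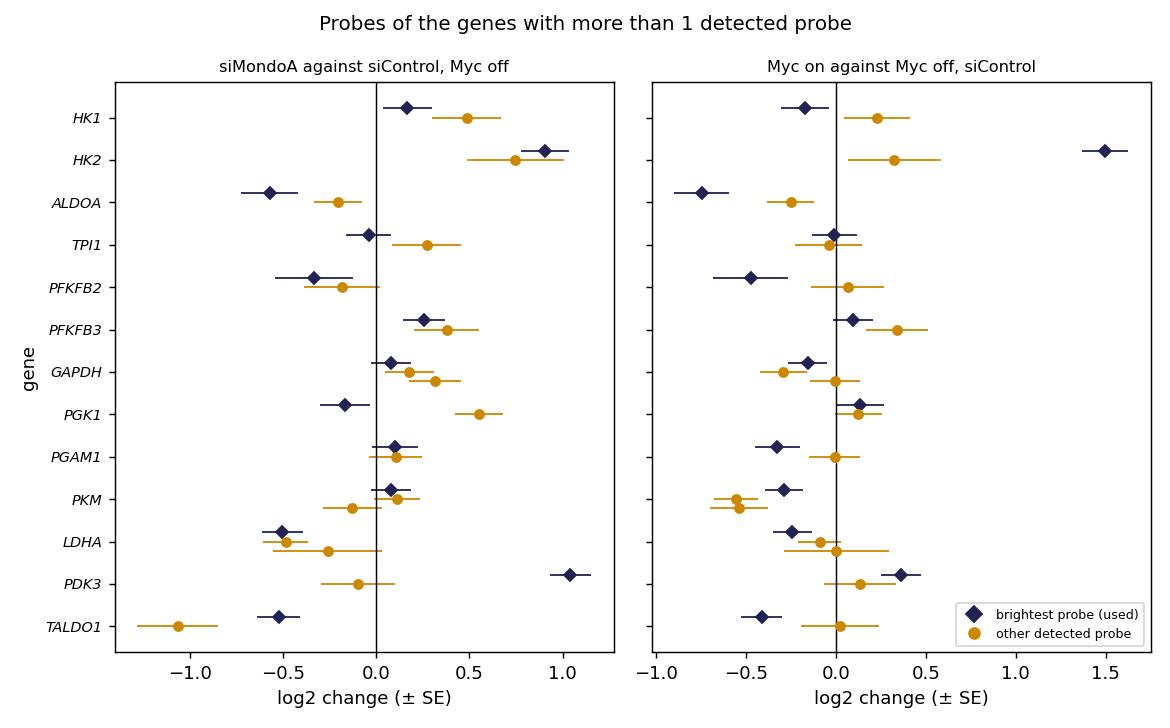
Log2 changes (horizontal axis, ± SE) are plotted for each detected probe of the 13 genes with more than 1, for knockdown with Myc off and for Myc on against off with siControl. Diamonds mark the brightest probe and circles the others. On the left the PGK1 probes lie at -0.17 and 0.55 and the PDK3 probes at 1.04 and -0.10.

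A set of 9 genes passed in no comparison with the processing described: HK1, PFKM, TPI1, PFKFB2, GAPDH, PGK1, ENO1, PDHA1 and PDK4. Their changes ranged from -0.56 to 0.68, and the bounds of their 95% intervals from -1.13 to 1.25. Of the 25 that passed somewhere, 11 did so once and 3 (HKDC1, ALDOC, PDK3) at least 4 times. Matching totals over all genes were not counted, and 8.7% to 43.8% of all genes passed in a single comparison. These totals therefore do not set the members apart from other genes.

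Related genes outside the list were counted in the same fit. Beside the counts that follow, knockdown raised 12.4% and lowered 12.5% of all genes with Myc on, and 21.8% and 22% with Myc off. In the Myc comparisons 14.6% were higher and 16.3% lower with siControl, and 14.9% and 15.1% with siMondoA. In the interaction 5.15% rose and 3.55% fell. Of 20 other glycolysis genes 11 were measured. Knockdown raised 1 and lowered 1 with Myc on, and raised 4 and lowered 1 with Myc off, with medians of 0.13 and 0.14. TIGAR, a phosphatase that degrades fructose 2,6-bisphosphate, rose by 0.86 and 1.89 (adjusted p = 0.00114 and 9.99e-07). ENO3, the muscle enolase, changed by -1.26 and -1.31 (adjusted p = 0.000131 and 2.69e-05). In the Myc comparisons 3 were higher and 0 lower with siControl, and 1 higher and 1 lower with siMondoA (medians 0.06 and -0.09), and 0 rose and 2 fell in the interaction (median -0.17). ENO3 was higher with Myc on under both siRNAs (0.98 and 1.03, adjusted p = 0.000522 and 0.000381).

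Of 10 other pentose phosphate genes 8 were measured. Knockdown raised 2 and lowered 1 with Myc on (median -0.02) and raised 3 and lowered 1 with Myc off (median 0.21). H6PD, the dehydrogenase of the endoplasmic reticulum, changed by -1.02 and -1.27 (adjusted p = 0.00156 and 0.000118), and RBKS, ribokinase, rose by 0.93 with Myc off (adjusted p = 1.23e-05). In the Myc comparisons 4 were higher and 1 lower with siControl (median 0.39) and 1 higher and 1 lower with siMondoA (0.18), while 0 rose and 2 fell in the interaction (median -0.29). PRPS2, which makes the ribose donor of nucleotides, was higher with Myc on in siControl cells (1.22, adjusted p = 5.67e-05), and PRPS1 in siMondoA cells (0.91, adjusted p = 0.000503).

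Of 16 other lactate and pyruvate genes 10 were measured. Knockdown raised 1 and lowered 0 with Myc on (median -0.02), and raised 3 and lowered 2 with Myc off (0.17). PDHX, which anchors one enzyme of the pyruvate dehydrogenase complex, rose by 0.47 and 0.91 (adjusted p = 0.0306 and 0.000257). In the Myc comparisons 2 were higher and 4 lower with siControl (median 0.02), 1 higher and 3 lower with siMondoA (-0.20), and 0 rose and 1 fell in the interaction (-0.13). DLAT, the acetyltransferase of the complex, was higher with Myc on in siControl cells (1.05, adjusted p = 0.000176) and fell in the interaction (-0.86, adjusted p = 0.0204).

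Of 12 glucose uptake genes 7 were measured, of which 6 fell and 0 rose with knockdown and Myc on (median -0.99), where 12.5% of all genes fell, and 6 fell and 1 rose with Myc off (-0.98), where 22% of all genes fell. The list holds TXNIP, which was chosen with its response known, and without it 5 of 6 fell in each Myc state (medians -0.83 and -0.88). SLC2A10, a glucose transporter, changed by -1.10 and -1.44 (adjusted p = 0.00567 and 0.000384). In the Myc comparisons 1 was higher and 3 lower with either siRNA (medians -0.24 and -0.35), and 1 rose and 1 fell in the interaction (0.20). Without TXNIP, 1 was higher and 3 lower with siControl (median -0.48), and 0 higher and 3 lower with siMondoA (-0.36). In the interaction 0 then rose and 1 fell (-0.02). SLC2A6, another transporter of the family, was lower with Myc on under both siRNAs (-0.95, adjusted p = 0.000387 with siControl and -1.19, adjusted p = 8.96e-05 with siMondoA).

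Of 22 glycogen, mannose and hexosamine genes 17 were measured. Knockdown raised 3 and lowered 4 with Myc on (median -0.14), and raised 1 and lowered 9 with Myc off (-0.27). MPI, which makes mannose 6-phosphate from fructose 6-phosphate, changed by -0.74 and -1.0 (adjusted p = 0.0384 and 0.00408). In the Myc comparisons 2 were higher and 7 lower with siControl (-0.03), 1 higher and 3 lower with siMondoA (-0.02), and 1 rose and 0 fell in the interaction (0.16). Of 19 genes linked to HIF1 outside glycolysis 17 were measured. Knockdown raised 2 and lowered 4 with Myc on (-0.09) and raised 3 and lowered 4 with Myc off (-0.24). In the Myc comparisons 0 were higher and 4 lower with siControl (-0.17), 0 higher and 5 lower with siMondoA (-0.09), and 0 passed in the interaction (limma, median 0.09, 0 at an unadjusted p below 0.05). The largest changes were in EPAS1, which encodes HIF2 alpha and is a regulator rather than a HIF1 target (0.98 and 1.19 with knockdown, adjusted p = 0.000258 and 1.87e-05, and -1.16 and -1.37 with Myc on, adjusted p = 5.55e-05 and 2.44e-05).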

How the data were processed

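Illumina bead arrays measured RNA of 12 Tet21N samples, 3 per group, grouped and numbered as labelled. Nothing says that replicates came from separate cultures, so the spread behind the p-values is that of these samples and may be technical. RNeasy Plus columns and the MessageAmp kit for biotinylated cRNA were used, per the labels' protocols.

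The authors deposited probe intensities on a linear scale, whose values show no background subtraction or normalization, and a detection score (a fraction from 0 to 1) which is the complement of a detection p-value. A further set of log2 values that the authors deposited was the same as quantile-normalized log2 intensities (largest difference 5.3e-14). The tool lumi is named, without a version, per the submitters' processing notes.

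Intensities were corrected and quantile-normalized with neqc (offset 16) of limma 3.58.1 in R 4.3.3. Probes were named through the platform annotation: of 47313 with values, 30108 had 1 symbol, 8 several and 17197 none, and 30069 matched RefSeq. Probes with a detection score above 0.95 on at least 3 arrays were kept, and the brightest per gene was used. With lmFit and eBayes, 1 mean per group was fitted to all 12 arrays together (residual degrees of freedom 8, prior 4.552), and p-values were Benjamini-Hochberg adjusted over 12178 genes, threshold 0.05. The median SE over all genes was 0.149 for a pairwise change, and precision is limited by the number of arrays. Where a group had no array that detected the gene, the fold is a bound.

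The members, the further lists and the marker lists were chosen with earlier results of these data known. Genes described array by array were members among the 3 highest or 3 lowest called changes of a pairwise comparison, or called in the interaction with an absolute value of at least 0.5. From the further lists, at most the 2 largest called changes per list and comparison were named. Alternatives changed the background correction, scaling, values, probe filter, probe per gene, variance model, arrays fitted, replicate block and array weights, and left out each array. CACGTG and CACGNG were searched on both strands of RefSeq promoter windows.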

Additional observations from a re-analysis of the deposited data

Results flagged for a closer look

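The effect of MondoA knockdown differed between Myc-on and Myc-off cells for 4 of the 34 genes, by limma's interaction term with Benjamini-Hochberg adjustment over all genes tested. That is 11.8% of the members, where 8.7% of all genes passed. TXNIP fell further with knockdown in Myc-off cells, and whether the knockdown was equally deep in both states was not tested. For HKDC1 the difference, Myc on minus Myc off, was 2.19 on the log2 scale (adjusted p = 4.6e-05). For LDHA it was 0.64 (adjusted p = 0.0239) and for PFKP 0.61 (adjusted p = 0.0153). For PDK3 it was -0.65 (adjusted p = 0.0244). The LDHA and PDK3 differences lost their calls under median scaling and with the mean of detected probes (for PDK3 -0.27 in both, adjusted p = 0.426 and 0.345), and when 5 and 7 of the 12 arrays respectively were left out in turn. A second PDK3 probe passed in no comparison. For HKDC1 all 3 siMondoA arrays lay above all 3 siControl arrays with Myc on and below them with Myc off.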

How the results depend on the processing

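Of 51 called changes of the members, 31 kept their call under every alternative that gave a value (11 or 12), 33 with each array left out in turn and 28 under both, and 0 turned direction. The deposited log2 values and quantile normalization without background correction, which are the same values, both count among these alternatives. Counts that moved by more than 1.5 times follow. Under median scaling, knockdown with Myc on gave 13 higher and 1 lower and with Myc off 6 lower, the Myc comparison gave 3 higher with siControl and 8 higher and 1 lower with siMondoA, and the interaction gave 0 lower. Over all genes it gave 2593 higher and 685 lower for knockdown with Myc on (1504 and 1522 in the main setting). It gave 2838 lower with Myc off (2674) and 775 higher for Myc with siControl (1774). With siMondoA it gave 2399 higher and 749 lower (1818 and 1837), and 86 lower in the interaction (432). The members' median changes then were 0.26 for knockdown with Myc on, 0.16 for the Myc comparison with siMondoA and 0.33 for the interaction. The deposited log2 values, and likewise quantile normalization with no background correction, gave 4 lower for knockdown with Myc on and 5 higher in the interaction, and so did the intensity trend. Detection on all 12 arrays gave 5 higher and 2 lower in the interaction, array weights 5 higher, and the mean of detected probes 0 lower. Over all genes the deposited values gave 1731 lower for knockdown with Myc on and the intensity trend 1703. In the interaction these gave 917 and 886 higher, array weights 750 higher and the mean of detected probes 432 lower, beside 627 higher and 432 lower in the main setting. Detection on all 12 arrays gave 737 higher and 579 lower there. The cause was not tested. Of the members' changes that did not pass, 25 passed under at least 1 alternative, and 26 of the 51 called changes moved in size by over 1.5 times under at least 1.

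Leaving out 1 array gave 3 to 8 higher and 2 to 3 lower for knockdown with Myc on, 5 to 7 and 8 to 10 with Myc off, 3 to 5 and 6 to 8 for the Myc comparison with siControl, 3 to 6 and 3 to 4 with siMondoA, and 2 to 5 and 0 to 1 in the interaction. Over all genes the counts in the same order were 1131 to 1545 and 1166 to 1573, then 2230 to 2683 and 2309 to 2683. The Myc comparisons gave 1348 to 1812 and 1599 to 2035, then 1469 to 1780 and 1452 to 1802. The interaction gave 411 to 663 and 257 to 479. The replicate block ended the calls of RPE for knockdown with Myc on, RPIA for knockdown with Myc off, and LDHB and PDK2 for the Myc comparison with siMondoA, and added that of PFKFB2 for Myc with siControl (-0.47, adjusted p = 0.034). Arrays of the same replicate number did not resemble each other more than other arrays: 0 of 18 same-number pairs correlated above 0.1 in their deviations from the group means (-0.097 to 0.083, against -0.091 to 0.112 for other pairs), and 3 of 12 arrays correlated best with their own number. Whether samples of the same number were paired by design is not stated in the labels. A slide block was not run, since neither labels nor files name slides. Signals near background limit PDP1, PDK2, PDK4 and PDK1. ENO2 and PFKFB2 were detected on all 12 arrays but were also low. Their intensities were 149.4 to 265.8 and 151.7 to 236.4, where the median intensities of the arrays were 116.8 to 143.2.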
